A study of Mus musculus with 37 samples.

Results

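The open chromatin sites listed in mouse 8-cell embryos were compared with those listed in the morula, the stage that follows. Sites were matched by identical chromosome, start and end. A site in both lists was called kept, one in the 8-cell list alone missing, and one in the morula list alone new. Together the lists held 22450 sites, of 22621 in any of the 5 embryo stages of the series. There were 9349 kept, 2974 missing and 10127 new sites.

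The sites are DNase I hypersensitive sites (DHSs), short stretches where DNA is not wrapped tightly in nucleosomes and the enzyme DNase I can cut it. Promoters, the stretches where transcription starts, are often open in many cell types, while open sites far from promoters include enhancers and differ more between cell types. Between the 8-cell stage and the morula the blastomeres flatten against each other in compaction and begin to polarise, and the outer and inner cells that later form trophectoderm and inner cell mass are set apart. Oct4 (Pou5f1), a POU-domain transcription factor that binds DNA, is needed for the inner cell mass and for pluripotency.

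The series applied a DNase-seq protocol for small cell numbers to mouse gametes, pronuclei, embryos and embryonic stem cells, and RNA-seq to a few embryo samples, 37 samples in all. The 8-cell group held 2 libraries of 25 embryos each, taken 60 h after fertilization, and the morula group 2 libraries of 10 embryos each, taken at 78 h. Both came from BDF1 oocytes fertilized in vitro with JF1 sperm and cultured, without any siRNA, and zona pellucida and polar bodies were removed. The Oct4 comparison used other libraries, 2 of 8-cell embryos given a control siRNA (siControl) and 2 of 8-cell embryos with Oct4 knockdown (Oct4-KD), each of 25 embryos at 60 h from BDF1 oocytes and BDF1 sperm. Earlier lists came from 1-cell, 2-cell and 4-cell embryos at 12, 30 and 46 h, from growing oocytes of 14-day-old mice, and from maternal and paternal pronuclei isolated at 7.5 h (stage PN3) and 12 h (stage PN5). The 2-cell and 4-cell embryos had parents of the same strains as the 8-cell group, while by the protocol the 1-cell embryos had BDF1 fathers and received more DNase I.

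Each stage has 1 deposited list over both libraries, so no value below has an error between embryos or libraries of a stage. Sites were the units of all tests on the lists, and neighbouring sites are not independent. The p-values describe these lists and not the spread between embryo pools, and confidence intervals, exact Clopper-Pearson at 95%, cover counting error only. The depth of the 8-cell and morula libraries is not known, and a missing site is one not listed, which need not be closed. Depth, pool size and stage cannot be told apart in these lists. Positions are on mm9, and as no gene annotation of that build was used here, no site is given a gene name.

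The first question was how much of the 8-cell list was listed again. Of 12323 8-cell sites, 9349 were kept, 75.9% (interval 75.1 to 76.6), and 75.9% is the background against which every share of kept sites below is read. Of 19476 morula sites, 10127 were new, 52.0% of the list. Covered sequence grew from 2.98 Mb in the 8-cell list to 4.40 Mb in the morula list. Kept sites covered 2.40 Mb, missing sites 0.584 Mb and new sites 2.00 Mb. The morula list thus took in far more sites than it dropped, and the new sites covered less sequence than the less numerous kept ones. The deposited list of sites gained in the morula held 10127 sites, all of them among the new ones, so new here is also the authors' definition.

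Class separated the kept sites from the missing ones. The authors gave each site 1 of 4 classes, promoter, intergenic, intron or exon. Among promoter-class 8-cell sites 5873 of 6386 were kept, 92.0% (91.3 to 92.6). Among all other sites 3476 of 5937 were kept, 58.5% (57.3 to 59.8). The odds of being kept were 8.11 times higher for promoter sites (95% interval 7.30 to 9.01), with an adjusted p below 1e-300 in a two-sided Fisher's exact test.

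The 3 other classes also differed among themselves. Exonic sites were kept in 67.7% of cases (63.3 to 71.9), 323 of 477. Intergenic sites were kept in 58.6% (57.0 to 60.3), 2038 of 3476, and intronic sites in 56.2% (54.0 to 58.4), 1115 of 1984. Exonic sites were kept more often than intergenic ones (odds ratio 1.48, adjusted p = 0.000226) and than intronic ones (1.63, adjusted p = 1.2e-05). For intergenic against intronic sites the odds ratio was 1.10 (0.986 to 1.24), which did not pass (adjusted p = 0.0824). These pairs were tested with Fisher's exact test after the data were seen.

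**Figure D1:**
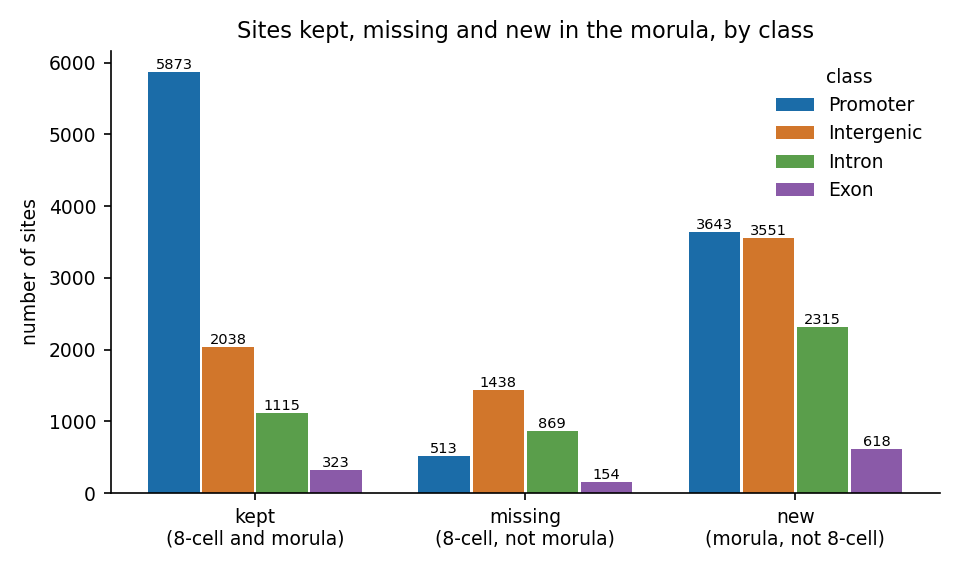
Number of sites (y axis) in the kept, missing and new sets (x axis), with a bar for each of the authors' 4 classes and its count above it. Promoter bars stand tallest among kept sites at 5873, are close to intergenic bars among new sites at 3643 and 3551, and are low among missing sites at 513.

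The sites that left and the sites that joined did not have the same makeup. Promoter sites were 62.8% of kept, 17.2% of missing and 36.0% of new sites. New sites were therefore less often promoters than kept ones (odds ratio 0.333, Fisher's exact test, adjusted p = 7.82e-310) and more often than missing ones (2.70, 2.43 to 2.99, adjusted p = 2.06e-89). Intergenic sites were 48.4% of missing and 35.1% of new sites, intronic sites 29.2% and 22.9%, and exonic sites 5.18% and 6.10%. By number of sites the exon class grew most, to 1.97 times its 8-cell count, from 477 to 941 sites. The intron class grew 1.73 times, the intergenic class 1.61 times and the promoter class 1.49 times. The share of the morula list that was new ran from 38.3% of promoter sites to 63.5% of intergenic, 65.7% of exonic and 67.5% of intronic sites.

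The widest site of each set and class gives an idea of what the lists hold. The widest kept promoter site, at chr19:54018481-54019290, spanned 810 bp, stood in all 5 stage lists and overlapped a site of the oocyte and of all 4 pronuclear lists. The widest kept exonic site, at chr14:15179561-15180930, spanned 1370 bp and was listed from the 2-cell stage on, and the widest kept intronic site, at chr5:143109961-143110550, spanned 590 bp and was listed from the 4-cell stage on. The widest kept intergenic site, at chrY:2782041-2782890, spanned 850 bp and stood in all 5 stage lists. These 4 are wide sites with a history before the 8-cell stage.

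The widest missing sites were shorter, and 3 of 4 had no such history. The missing promoter site at chr3:54915241-54915690 spanned 450 bp, and the missing exonic site at chr10:88011361-88011750 spanned 390 bp. Both were in the authors' list of sites lowered by Oct4 knockdown. The missing intronic site at chr12:32313261-32313710 spanned 450 bp. The missing intergenic site at chr3:93624761-93625250 spanned 490 bp and differed from them in having been listed at the 2-cell, 4-cell and 8-cell stages before it left the list.

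The widest new sites were wider than the missing ones in each class. New sites were also more numerous, 10127 against 2974, and the widest site of a larger set tends to be wider. The new promoter site at chr11:108204821-108205390 spanned 570 bp, the new intergenic site at chr2:104348841-104349390 spanned 550 bp and the new exonic site at chr10:127095041-127095530 spanned 490 bp, and no earlier list held any of them. The new intronic site at chr7:50705721-50706190 spanned 470 bp and had been listed at the 4-cell stage, but not at the 1-cell, 2-cell or 8-cell stage.

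Width was the next question. A site has the same width in every list, and as set out below this width need not be independent of being kept. Kept sites had a median width of 230 bp, missing sites 170 bp and new sites 190 bp. Sites at least 200 bp wide were kept in 85.9% of cases (6850 of 7975) and narrower sites in 57.5% (2499 of 4348), an odds ratio of 4.51 (4.13 to 4.92, Fisher's exact test, adjusted p = 2.11e-262). New sites reached 200 bp less often than kept ones, 37.8% against 73.3% (odds ratio 0.221). New and missing sites reached it about equally often, 37.8% each. The odds ratio of new against missing was 0.997 with an interval of 0.916 to 1.09, which did not pass (adjusted p = 0.949).

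The kept share rose most in the step from 150 bp to 170 bp, and outside promoters it was higher again at larger widths. All widths run from 150 bp upward in steps of 20 bp. Of sites 150 bp wide, 28.2% were kept, and of sites 170 bp wide, 73.7%. Among promoter sites the shares were 56.9% and 89.0%, and among the other classes 16.4% and 58.0%. The step passed the test in both (odds ratios 0.163 and 0.142, Fisher's exact test, adjusted p = 5.63e-34 and 7.99e-69, chosen after the data were seen). From 190 bp on, promoter shares lay between 93.4% and 100%. The other classes were at 63.3% at 190 bp, 69.4% at 210 bp and 65.9% at 270 to 290 bp. They reached 84.3% at 310 to 350 bp, 88.1% at 370 to 450 bp and 98.1% at 470 bp or more. Of sites at least 470 bp wide, 286 of 288 were kept, 99.3%. At every width group the promoter share was higher, and with sites stratified by width the promoter odds ratio was 8.00 by Mantel-Haenszel.

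**Figure D2:**
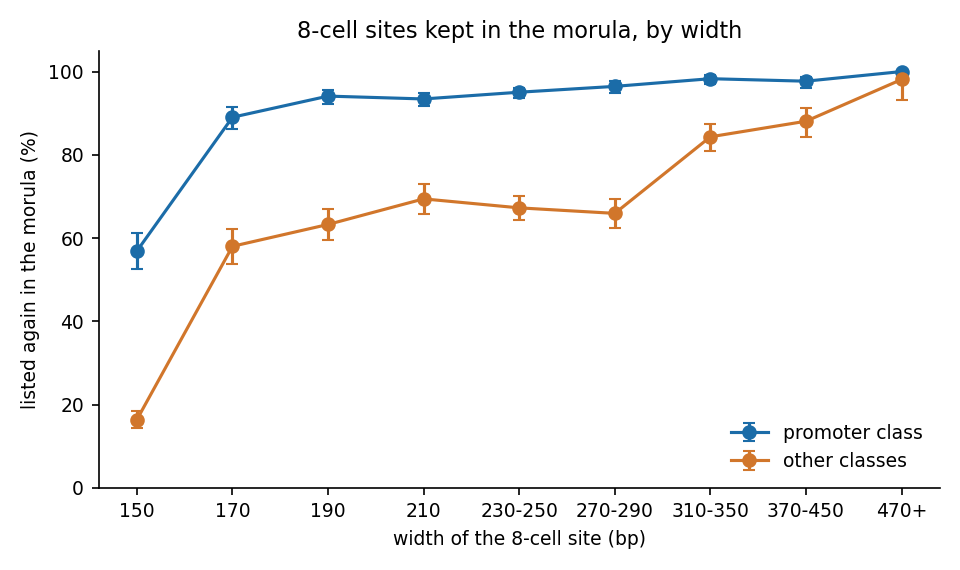
Share of 8-cell sites listed again in the morula (y axis, percent) against the width of the site (x axis, bp), for promoter-class sites and all other classes. Bars are exact 95% intervals. Both curves rise from 150 bp to 170 bp, from 56.9% to 89.0% for promoters and from 16.4% to 58.0% for the others, which rise again from 310 bp.

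The 5 stage lists share their coordinates, and no 2 sites of the lists overlapped, the smallest gap being 10 bp. A site therefore has 1 width at every stage where it is listed, whatever the extent of the signal at each stage. Over all 5 lists, sites in 1 list had a median width of 170 bp, and 35.5% of them were 150 bp wide. Sites in 2 lists had a median of 230 bp with 7.41% at 150 bp, and sites in all 5 lists a median of 330 bp with 0%. Whether listing at more stages widened a site, or wide sites were listed more often, cannot be told apart here.

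Sites with a history before the 8-cell stage were mostly kept. Of 2688 8-cell sites also listed at the 4-cell stage, 97.7% were kept, and of 9635 not listed there, 69.8% (odds ratio 18.7, 14.4 to 24.6, Fisher's exact test, adjusted p = 4.86e-268). Among promoters the shares were 99.6% and 88.2%, and among the other classes 91.0% and 55.1%. Wide sites were listed at the 4-cell stage more often, and with sites stratified by width the odds ratio was 10.9 (8.39 to 14.2). By the number of earlier embryo stages in which a site was listed, the kept share was 68.9% for 0, 95.5% for 1, 99.4% for 2 and 99.7% for 3.

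Sites listed at the 2-cell stage but at no other stage before the 8-cell stage stood lower. Of these 176 sites 144 were kept, 81.8%, against 96.6% of 1695 sites with the 4-cell stage alone and 97.8% of 185 with the 1-cell stage alone. The 32 missing sites among them made up most of the 37 missing sites with any 2-cell listing. Conversely, 216 new sites had been listed before the 8-cell stage, 2.13% of all new sites, and 157 of them at the 4-cell stage alone. Class was not held equal in these kept shares. Of the 37 missing sites with any 2-cell listing, 36 were outside the promoter class. Among sites with the 4-cell stage alone, 1224 of 1638 kept and 9 of 57 missing ones were promoters. These values are a description, with no test.

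New sites had more in common with lists from before the first cleavage than missing sites had. An overlap of at least 1 bp with a site of the oocyte or pronuclear lists was found for 1188 new sites, 11.7% (11.1 to 12.4), and for 112 missing sites, 3.77% (3.11 to 4.51). The odds ratio was 3.40 (2.78 to 4.18, Fisher's exact test, adjusted p = 2.87e-44), and it was 1.46 among promoter sites and 4.94 among the others. Kept sites overlapped such a site in 44.9% of cases. Among new sites the maternal PN5 list was overlapped by 5.95%, the maternal PN3 list by 4.96%, the paternal PN3 list by 4.56%, the paternal PN5 list by 2.90% and the oocyte list by 0.217%. These lists differ in length, so their order is a description. At most 216 of the 1188 new sites with an early overlap had been in an earlier embryo list, since 216 is the number among all new sites.

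The kept share also rose with the number of those 5 early lists a site overlapped. It was 64.3% for 0 lists, 94.1% for 1 and 97.7% for 2. It was 98.7% for 3, 99.4% for 4 and 99.8% for 5. With 0 lists promoters were at 84.5% and other classes at 53.3%, and with 1 list the values were 94.8% and 91.8%. With 5 lists they were 100% and 97.1%, and 471 of the 505 sites were promoters. Wider sites have more room for an overlap of 1 bp, and these shares were not stratified by width.

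Missing promoter sites often had a morula site close by. Of 513 missing promoter sites 213 had a morula site within 200 bp, 41.5% (37.2 to 45.9), and the median gap to the nearest morula site was 310 bp. Of the other missing sites 9.87% had one (243 of 2461), and the median gap was 10290 bp. The difference passed (odds ratio 6.48, 5.17 to 8.12, Fisher's exact test, adjusted p = 2.34e-59). Of the 213 promoter sites 210 had a promoter-class site as such a neighbour, and 141 had a kept one. So for a part of the missing promoter sites, open chromatin was still listed in the morula a short way along the same stretch.

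Kept sites were the comparison for this. A second morula site lay within 200 bp of 26.6% of kept promoter sites, so missing promoter sites had one more often (odds ratio 1.96, 1.62 to 2.36, Fisher's exact test, adjusted p = 3.86e-12). In the other classes pooled it was the reverse, 9.87% of missing against 17.9% of kept sites (odds ratio 0.504, 0.428 to 0.591, Fisher's exact test, adjusted p = 2.85e-18). Exonic sites alone did not show this, with 28 of 154 missing sites (18.2%) and 56 of 323 kept sites (17.3%), a pair not tested on its own. New promoter sites stood near an 8-cell site in 18.1% of cases (659 of 3643), against 6.38% of other new sites (odds ratio 3.24, Fisher's exact test, adjusted p = 2.67e-71). Of those 659 sites 586 had a kept site as such a neighbour. Most new promoter sites were far from any 8-cell site, with a median gap of 17370 bp, close to the 15510 bp of intergenic and 20230 bp of intronic ones. All 4 neighbour tests were chosen after the data were seen. A gap of up to 200 bp can hold a site whose calls were split or shifted, and this was not tested.

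**Figure D3:**
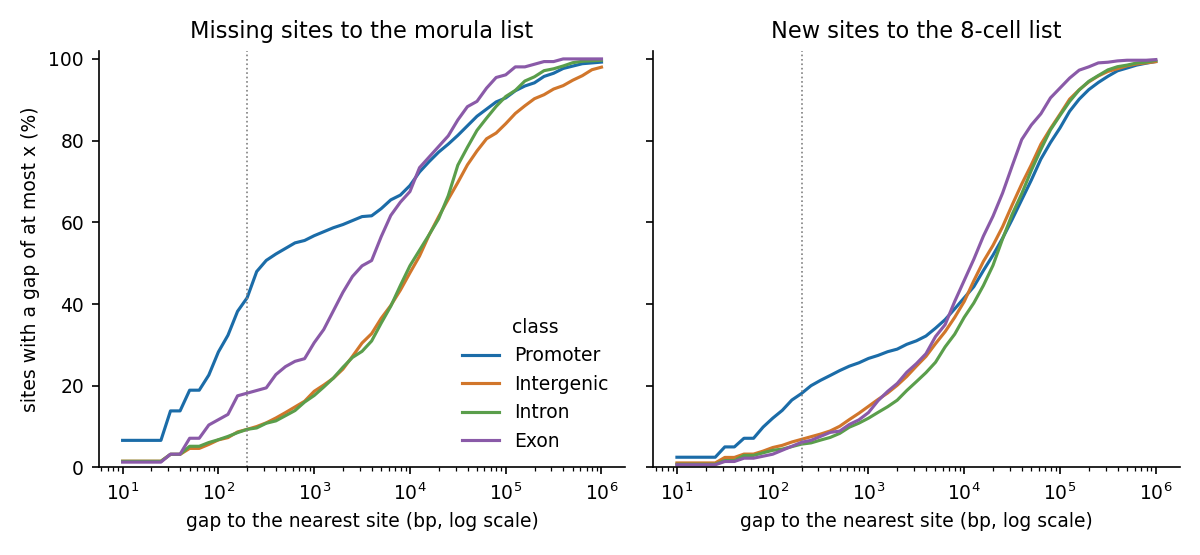
Cumulative share of sites (y axis, percent) whose gap to the nearest site of the other list is at most the value on the x axis (bp, log scale), for missing sites to the morula list on the left and new sites to the 8-cell list on the right, by class. The dotted line marks 200 bp, where the promoter curve stands at 41.5% for missing and 18.1% for new sites, above the other classes.

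Across chromosomes the kept share of promoters covered a narrower range in percent than that of the other classes. Over chromosomes 1 to 19 and X it ran from 89.0% to 94.7% for promoter sites. For the other classes it ran from 44.7% on chromosome 18 to 67.3% on chromosome 17. Promoter shares lie close to the upper limit, where percentages have less room to differ, and the 2 spreads were not compared in a test. With each chromosome set against the rest over all classes, 20 tests added after the data were seen, 2 were higher and 2 lower. Chromosome 17 was at 81.7% (474 of 580, odds ratio 1.45, Fisher's exact test, adjusted p = 0.0119). Chromosome 19 was at 81.6% (289 of 354, odds ratio 1.43, adjusted p = 0.0483). Chromosome 18 was at 67.9% (201 of 296, odds ratio 0.666, adjusted p = 0.0127). The X chromosome stood beside chromosome 18, at 68.9% (252 of 366, odds ratio 0.695, adjusted p = 0.0127). In the same 20 tests over the classes other than promoter, chromosome 17 was higher and chromosome 18 and X were lower, while chromosome 19, at 63.5%, no longer passed (odds ratio 1.24, Fisher's exact test, adjusted p = 0.431).

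**Figure D4:**
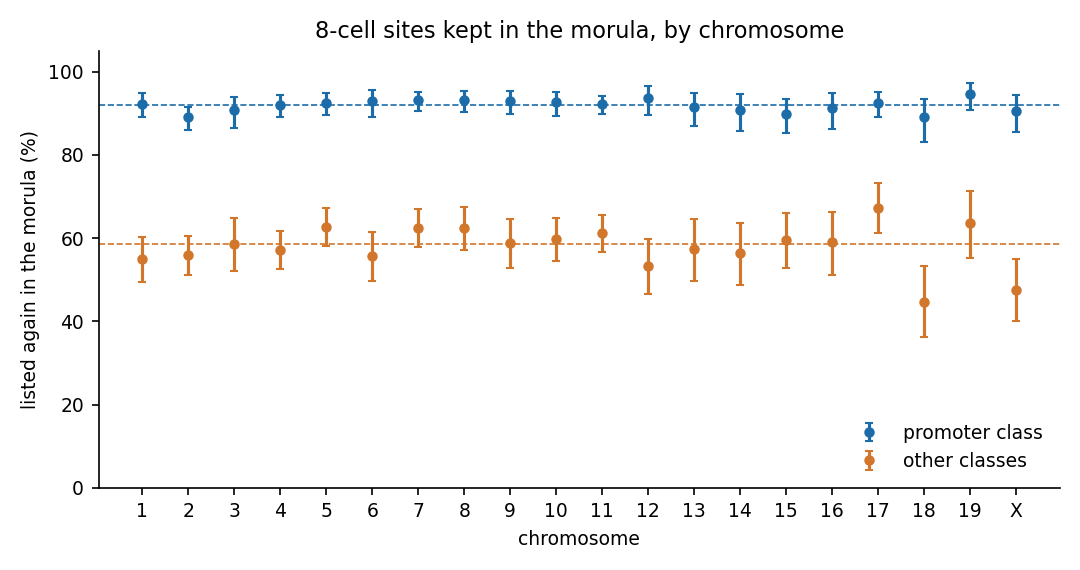
Share of 8-cell sites listed again in the morula (y axis, percent) by chromosome (x axis), for promoter-class sites and all other classes, with exact 95% intervals and dashed lines at the shares over all chromosomes, 92.0% and 58.5%. Among the other classes chromosome 17 lies highest at 67.3%, and chromosome 18 at 44.7% and X at 47.6% lie lowest.

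The X chromosome was also set against the autosomes alone. As background, the paternal X of female mouse embryos is being silenced during the cleavage stages. The sex of the pooled embryos is not given. On the X 68.9% of sites were kept, and on the autosomes 76.1% (odds ratio 0.694, 0.552 to 0.877, Fisher's exact test, adjusted p = 0.0023). The X also gained less, growing from 366 to 466 sites, 1.27 times, while the autosomes grew between 1.53 and 1.73 times. New sites made up 45.9% of the X sites of the morula and between 49.0% and 56.6% on the autosomes. The X held 2.11% of new and 2.70% of kept sites (odds ratio 0.779, 0.645 to 0.941, adjusted p = 0.00939). The Y chromosome had 9 sites in the 8-cell list and 5 in that of the morula, 4 of them kept.

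The X results passed the test in sites outside promoters and not in promoters alone. Among promoter sites on the X 90.6% were kept, and the odds ratio against autosomes was 0.838 (0.503 to 1.49), which did not pass (adjusted p = 0.556). Among the other classes 47.6% were kept on the X and 58.9% on the autosomes (odds ratio 0.632, adjusted p = 0.0027). Whether the 2 odds ratios differ was not tested. The lower X share of new sites did not hold in promoter sites alone (odds ratio 1.07) or in sites at least 200 bp wide (1.02). Without the window named next it was 0.835 and did not pass (adjusted p = 0.0689).

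In windows of 1 Mb, the one with the most missing sites was on the X, at 4 to 5 Mb. It held 15 missing, 19 kept and 2 new sites, and 0 of its 36 sites were promoters. Next came chromosome 7 at 29 to 30 Mb, with 12 missing, 42 kept and 46 new sites, which was also the window with the most new sites. Chromosome 7 at 16 to 17 Mb followed with 11 missing sites, as many as 3 other windows. The windows with the most kept sites were on chromosome 10 at 80 to 81 Mb, with 52 kept, 6 missing and 36 new sites, and at 79 to 80 Mb, with 47, 4 and 42. The third was on chromosome 7 at 52 to 53 Mb, with 45 kept, 4 missing and 34 new sites. Over both lists 10127 sites were new and 2974 missing, so more new than missing sites, as in the autosomal windows named, is the background. The X window, with 2 new and 15 missing sites, went the other way. The windows were picked by these counts, so their contrast is a description and no test.

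The last question was whether sites that the authors list as lowered by Oct4 knockdown at the 8-cell stage were listed again. The authors deposited a table of 2643 sites lowered in Oct4-KD 8-cell embryos, 27.4% of the 9635 sites that were listed at the 8-cell stage and not at the 4-cell stage. Of these lowered sites 1656 were kept, 62.7% (60.8 to 64.5), and of the other 6992 gained sites 72.5% (71.4 to 73.5). The odds ratio was 0.638 (0.580 to 0.702, Fisher's exact test, adjusted p = 4.19e-20), and stratified by width it was 0.675. Put the other way, lowered sites were 33.9% of missing and 24.6% of kept gained sites.

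The difference had the same direction in all 4 classes and passed in 3, in tests chosen after the data were seen. Lowered promoter sites were kept in 85.3% of cases and other gained promoter sites in 89.1% (odds ratio 0.711, Fisher's exact test, adjusted p = 0.00364). For intergenic sites the shares were 47.9% and 57.8% (0.671, adjusted p = 1.42e-06), and for exonic sites 56.2% and 68.2% (0.599, adjusted p = 0.0274). For intronic sites they were 50.7% and 54.6%, and the odds ratio of 0.854 (0.698 to 1.04) did not pass (adjusted p = 0.121). Whether the classes differ in this was not tested.

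The table gives each lowered site a value in each of the 4 libraries, read as RPM, reads per 1e+06 library reads. In siControl library 1 the median was 4.87 RPM per kb of site for kept and 3.20 for missing sites, and in siControl library 2 it was 2.34 and 1.56. In Oct4-KD library 1 it was 0.993 and 0.514, and in Oct4-KD library 2 1.26 and 0.690. Missing sites were lower than kept ones in all 4 libraries, with and without knockdown. The quartiles overlapped in each library, from 3.17 to 7.30 RPM per kb for kept and 1.93 to 4.87 for missing sites in siControl library 1. The siControl libraries also differed from each other, library 1 lying above library 2 in both sets.

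These values rest on few reads. The median lowered site had 9 reads in siControl library 1, 4 in siControl library 2 and 2 in each Oct4-KD library if kept, and 5, 2, 1 and 1 if missing. Listed values of 0 in Oct4-KD library 1 made up 22.8% of kept and 48.2% of missing sites. In the authors' deposited table the median log2 fold of siControl over Oct4-KD was 1.46 for kept and 1.78 for missing sites. Single libraries moved these medians, to 0.96 and 0.97 without siControl library 1 and to 1.72 and 2.52 without Oct4-KD library 2. Their order depended on the small number added before the logarithm. With 0.1 added the medians were 1.22 and 1.26, and with 0.5 added they were 0.75 and 0.59, kept sites then being the higher.

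The table holds sites that the authors selected for a fall, so counting falls in it shows nothing. In the recovered reads edgeR's quasi-likelihood test called 0 of 2643 sites lower (0.00%), with 210 at an unadjusted p under 0.05, and limma called 0, with 243. With few libraries and few reads, 0 calls do not show how the authors chose the sites. The smallest deposited log2 fold was 1.001 among kept and 1.013 among missing sites, and any further rule of the authors is not known here. Membership in the table is the authors' selection and not a test passed here. Among lowered sites the missing ones were weaker in the control libraries, and the table holds no values for the other gained sites. Whether such weakness has a part in the more frequent listing of missing sites as lowered was not tested.

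**Figure D5:**
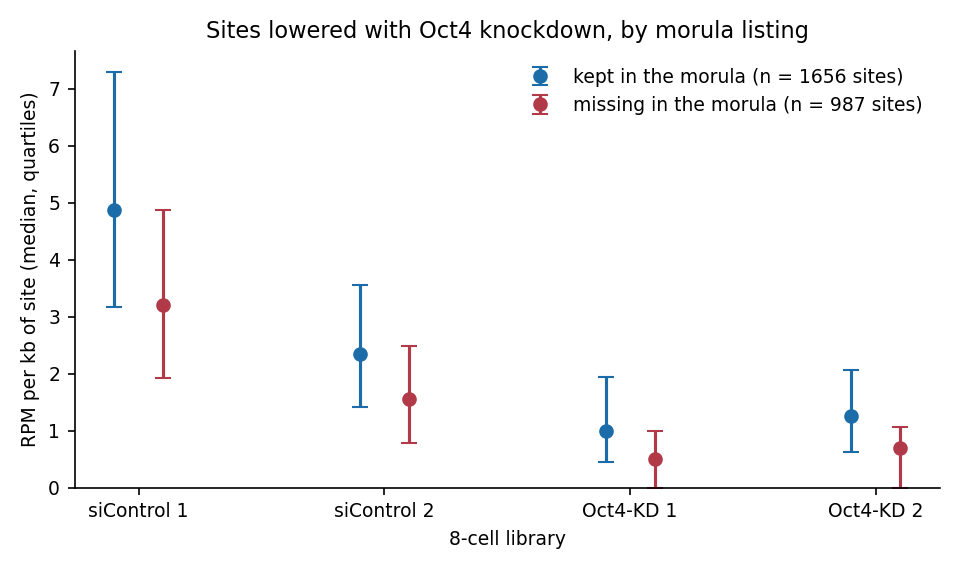
RPM per kb of site (y axis) in the 4 libraries of the Oct4 knockdown comparison (x axis) for lowered sites that were kept (1656) or missing (987) in the morula. Points are medians over sites and bars run from the lower to the upper quartile. Medians of missing sites lie below those of kept sites in each library, for example 3.20 against 4.87 in siControl library 1.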

How the data were processed

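The members, lists and tests were chosen with earlier results of these data known. The authors deposited 1 DHS list per stage with a class for each site, and per the submitters' processing notes reads were aligned with Bowtie 0.12.9 to mm9. The sources used here do not give the DHS caller, its threshold or the definition of the classes. Starts count from 0 in the files and are printed with 1 added. The named sites are the widest of each set and class and the 3 windows of 1 Mb with the most sites of each set.

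The authors deposited a table of sites lowered by Oct4 knockdown, with 1 value for each library, taken as RPM from its steps, and a log2 fold of siControl over Oct4-KD, per the file headers. That fold equals the log2 of mean RPM plus 0.01 in each group, to within 0.0005. All nonzero RPM values (100%) lay within 0.1 reads of a whole read number, and the steps give 8218640 and 6746480 reads in the siControl and 6692918 and 6917327 in the Oct4-KD libraries. No label says that the 2 libraries of a group came from separate mothers or fertilizations, so edgeR and limma p-values measure the spread between these libraries, which may be technical.

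Shares and odds ratios were computed in Python 3.11.15 with scipy 1.17.1 and statsmodels 0.14.6. Fisher's exact tests were two-sided with Benjamini-Hochberg adjustment over 11 tests, or within each added family, at a threshold of 0.05. Overlaps were checked against bedtools 2.31.1. Recovered reads were tested with edgeR 4.0.16 (quasi-likelihood) and log2(RPM + 0.1) with limma 3.58.1 in R 4.3.3, with group as the only term and library sizes from the steps. Scripts were tested on simulated data. The edgeR simulation had more reads per site than the libraries hold, so it does not show which falls the test can find at the real depth.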

Additional observations from a re-analysis of the deposited data

How the results depend on the processing

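Among the alternative values 89 kept direction and side of the threshold, 4 turned direction, 2 no longer passed and 7 moved. Of the 89, 12 came from matching sites by an overlap of at least 1 bp and 12 by 50% reciprocal overlap. As no 2 sites of the stage lists overlap, these settings repeat the main values. Only the odds ratio of early overlap, new against missing, changed, to 3.98 at 50%. The 89 also hold the counts of sites called in the Oct4 table, which were 0 to begin with. The kept share of 75.9% was 85.9% for sites at least 200 bp wide and 79.6% with sites within 200 bp counted as the same. The X odds ratio of new against kept sites was 1.02 in sites at least 200 bp wide (adjusted p = 0.902), 1.07 in promoter sites (0.570) and 0.835 without the X window of most missing sites (0.0689), and the kept odds ratio of the X was 0.838 in promoter sites (0.556). The width odds ratio of new against missing sites was 1.19 in promoter sites (0.109). The odds ratio of 4-cell listing was 31.3 in promoter and 8.20 in other sites. The median log2 fold of lowered sites, kept minus missing, was -0.33 as deposited, 0.16 with 0.5 added, and between -0.81 and -0.01 without each library in turn, nearest to 0 without siControl library 1. In each case the cause was not tested.

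For the Oct4 table, a fit with the library number as a replicate block called 0 sites, with 53 at an unadjusted p under 0.05, and edgeR without each library in turn called 0 to 0, with 33 to 548. There the lone library of an arm is assumed to vary like the other group, and with 0 calls from all libraries these fits say nothing about stability. Deviations of same-numbered libraries correlated at 0.0085. With 2 libraries per group this is a single value, and it rests on few reads. It therefore cannot show whether the numbers pair the libraries. No paired analysis was possible for the lists because each stage has 1 list. Depth limits the lowered sites, with medians of 1 to 9 reads.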

Other observations

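A neighbour already in the 8-cell list went with opposite outcomes in promoters and elsewhere, in tests chosen after the data were seen. Promoter sites with another 8-cell site within 200 bp were kept in 88.0% of cases (1154 of 1312) and those without one in 93.0% (4719 of 5074), an odds ratio of 0.549 (0.449 to 0.674, Fisher's exact test, adjusted p = 1.98e-08). Other sites with such a neighbour were kept in 65.5% of cases (483 of 737) and those without in 57.6% (2993 of 5200), an odds ratio of 1.40 (1.19 to 1.65, adjusted p = 3.79e-05). The 2 odds ratios differed by Zelen's exact test of their equality (p = 1.61e-12). Within the other classes the shares with and without a neighbour were 65.5% and 57.7% for intergenic, 66.8% and 54.7% for intronic and 62.2% and 68.9% for exonic sites, so exonic sites lay on the promoter side, which was not tested.

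By the share of sites at least 200 bp wide, the classes of kept sites lay close together, which was not tested. Such sites were 73.4% of kept promoter, 73.0% of kept intergenic, 73.2% of kept intronic and 73.1% of kept exonic sites. Among new sites the shares were 39.4%, 36.4%, 36.5% and 40.3%, and among missing sites 35.3%, 39.8%, 35.6% and 40.9%. At the narrowest width the new sites spread more, with 28.7% of promoter, 35.3% of intergenic, 34.5% of intronic and 31.6% of exonic sites at 150 bp. In the 8-cell list as a whole promoters were wider, with 70.3% at 200 bp or more against 59.2% of intergenic and 56.7% of intronic sites.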
